A study of Mus musculus with 17 samples.

Results

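The genes described here are Mroh1, Prkar2a, Cmtm6, Isca2, Htra1, Tinagl1, Aqp3 and Mme, 8 of the 55416 genes in the count files. They were selected on measured values, for large changes after Nmd3 siRNA in RNA bound to ribosomes at the endoplasmic reticulum (ER), with Nmd3 itself set aside. All 8 passed the filter on low counts in every fit. The cells were E14Tg2a.4 mouse embryonic stem cells with a FLAG-TEV-AviTag on the ribosomal protein Rpl31, which all groups share, and they were cultured with serum and leukemia inhibitory factor. Proximity biotinylation with ALIBi tagged ribosomes at the ER, and polyA RNA was sequenced from the purified ribosomes and from the whole-cell lysate. The ER ribosome-bound libraries numbered 3 after Nmd3 siRNA, 3 after Gnl3 siRNA and 2 after scramble siRNA. The whole-cell libraries numbered 3 for each siRNA. The submitters' labels mark Nmd3 whole-cell replicate 2 and Gnl3 whole-cell replicate 3 as left out of their own analysis, and both were left out of the tests here, which leaves 15 of 17 libraries. Replicates are labelled as biological, and the whole-cell libraries are from the same cultures as the ER libraries.

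Nmd3 is the nuclear export adaptor of the large ribosomal subunit, and Gnl3 (nucleostemin) is a nucleolar GTPase involved in assembly of that subunit. An siRNA lowers its target mRNA by base pairing, and it can also lower other mRNAs that pair with its seed. Proteins that enter the secretory pathway are made on ribosomes at the ER, whereas most cytosolic proteins are not. Of the 8 genes, Cmtm6, Htra1, Tinagl1, Aqp3 and Mme encode proteins of the secretory pathway. Prkar2a encodes a cytosolic protein and Isca2 a mitochondrial one.

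Depth was 15.2 to 29.9 M gene counts per library. Log2 CPM (counts per M gene counts) of the 15 libraries used correlated across genes at 0.989 to 0.994 within a fraction, whereas the libraries left out correlated with them at 0.913 to 0.938. Mitochondrial RNA was 0.769% of counts in the Nmd3 library left out and 6.14% in the Gnl3 library left out. It was also low in Nmd3 whole-cell replicate 1, at 1.15%, against 1.86% to 2.03% in the other whole-cell libraries used. In whole-cell RNA the 8 pluripotent cell markers, which include Pou5f1, Nanog and Sox2, summed to 5699 to 6092 CPM after Nmd3 siRNA and 5075 to 5381 CPM after Gnl3 siRNA, against 5529 to 5657 CPM after scramble siRNA. Fibroblast and feeder cell markers summed to 12.7 to 15.2 CPM after Nmd3 siRNA and 18 to 18.5 CPM after Gnl3 siRNA, against 16.9 to 17.6 CPM after scramble siRNA. Neither list overlapped between the siRNAs in whole-cell RNA. On ER ribosomes the pluripotent sum was 6652 to 7143 CPM after Nmd3 siRNA, overlapping the 6997 to 7191 CPM after scramble siRNA. It was 6251 to 6515 CPM after Gnl3 siRNA. The fibroblast and feeder sum there was 35.1 to 40.1 CPM after Nmd3 siRNA and 36.5 to 39.5 CPM after Gnl3 siRNA. Both lay above the 32.9 to 33.7 CPM after scramble siRNA, whereas in whole-cell RNA the Nmd3 sum lay below scramble. The part of these shifts in the results below was not tested. In the fibroblast list, over the libraries used of both fractions, Thy1 was highest, at 8.18 to 33.2 CPM, then Col1a1 at 1.74 to 6.68 CPM. Each other marker of that list was at most 1.03 CPM. In whole-cell RNA, log2 fold changes for Nmd3 against scramble siRNA were -0.442 for Thy1 (SE 0.139) and 0.185 for Col1a1 (SE 0.256). For Col1a2 it was -0.278 (SE 0.589). Whether the share of such cells differed was not tested. Over both fractions, primitive endoderm markers summed to 11.7 to 20.7 CPM and trophoblast markers to 139.6 to 170.3 CPM. In the trophoblast list Tfap2c was at 78.6 to 105.2 CPM, Krt8 at 18.7 to 35.9 CPM and Krt18 at 17.4 to 23.5 CPM. Eomes was at 6.56 to 10.2 CPM, and Cdx2, Elf5, Hand1 and Gata3 were at most 2.07 CPM.

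Each targeted mRNA was low in the libraries labelled with its siRNA. ER ribosome libraries held 25.2, 24.1 and 25.2 CPM of Nmd3 with Nmd3 siRNA, against 124 and 120 CPM with scramble siRNA. Whole-cell libraries held 43.7 and 43.2 CPM of it with Nmd3 siRNA, against 153, 154 and 150 CPM after scramble siRNA. Whole-cell Gnl3 levels were 70.2 and 54.2 CPM with Gnl3 siRNA, against 272, 270 and 256 CPM with scramble siRNA. Gnl3 overlaps an exon of Pbrm1 on the other strand. The log2 fold change of the target in whole-cell RNA was -1.81 (SE 0.066) for Nmd3 and -2.10 (SE 0.081) for Gnl3. The whole-cell Nmd3 level with Gnl3 siRNA was 152 and 142 CPM, with a log2 fold change of -0.05 (SE 0.059) against scramble. The Gnl3 library left out held 274 CPM of Nmd3 and the Nmd3 library left out held 72.3 CPM.

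The upstream sequences of Prkar2a, Cmtm6 and Isca2 are shown because these genes passed a test in whole-cell RNA, as set out below. They are the 250 bases before the start site of each gene, read 5′ to 3′ on the gene's strand (plus) from RefSeq on build GRCm38.p6. Promoter entries were matched for 7 of the 8 genes, and Mroh1 had no match. Capitals mark matches on either strand to TGACG (the core of the cAMP response element), GGGCGG (the GC box), CCAAT (the CCAAT box) or TATAAA (the TATA box), and no match overlapped another.
Prkar2a, chr9:108691893-108692142: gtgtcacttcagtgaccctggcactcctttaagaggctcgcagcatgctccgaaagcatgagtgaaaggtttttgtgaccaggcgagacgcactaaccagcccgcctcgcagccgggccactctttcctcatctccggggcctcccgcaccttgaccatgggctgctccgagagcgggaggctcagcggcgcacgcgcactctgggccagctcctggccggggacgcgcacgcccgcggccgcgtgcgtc
Cmtm6, chr9:114730953-114731202: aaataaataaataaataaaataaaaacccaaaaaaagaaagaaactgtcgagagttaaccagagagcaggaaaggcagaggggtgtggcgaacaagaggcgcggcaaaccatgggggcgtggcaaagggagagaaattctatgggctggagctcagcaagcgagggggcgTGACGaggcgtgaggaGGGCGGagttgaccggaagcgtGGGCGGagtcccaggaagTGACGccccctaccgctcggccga
Isca2, chr12:84773020-84773269: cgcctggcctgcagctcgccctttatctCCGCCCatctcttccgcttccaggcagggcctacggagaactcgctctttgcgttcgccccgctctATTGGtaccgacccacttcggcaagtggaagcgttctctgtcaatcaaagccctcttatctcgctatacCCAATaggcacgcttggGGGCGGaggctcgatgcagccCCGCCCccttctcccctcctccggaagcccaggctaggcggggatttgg
The Prkar2a stretch held none of the 4 motifs. The Cmtm6 stretch held TGACG at 80 and 24 bases and GGGCGG at 64 and 42 bases before the start site, all on the gene's strand. The Isca2 stretch held 3 GC boxes and 2 CCAAT boxes. Of 32851 mouse promoters, the same 250 bases held TGACG in 17.8%, GGGCGG in 32.7%, CCAAT in 33.8% and TATAAA in 12.4%.

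On ER ribosomes, where the genes were chosen, 206 of 17632 genes tested (1.17%) passed an adjusted p under 0.05 between Nmd3 and scramble siRNA (edgeR quasi-likelihood test). The values of the 8 genes in this comparison are a description and carry no test. Mroh1 and Prkar2a were lower and the other 6 were higher. Log2 fold changes were -0.86 for Mroh1, -0.63 for Prkar2a, 0.58 for Cmtm6, 0.64 for Isca2, 0.64 for Htra1, 0.81 for Tinagl1, 0.57 for Aqp3 and 0.55 for Mme, with SE between 0.054 and 0.132. In bulk RNA, a lower level per cell and fewer cells with the mRNA cannot be told apart. The genes are not the 8 at the top by fold change. Another 20 genes that passed had a larger absolute fold change than Mme, and 19 of these had a mean log2 CPM under 4. The exception was Impact, an inhibitor of the kinase Gcn2, at a log2 fold change of -0.55. Of the 8 genes, Tinagl1 also had a mean log2 CPM under 4, at 3.72. Just below Mme came Lyn (a Src family kinase) at 0.55, Svip (a small protein that binds the ATPase VCP) at -0.55, Dennd1a (an exchange factor for Rab GTPases) at 0.54, Rcan3 (a regulator of calcineurin) at -0.54 and Mrpl36 (a subunit of the mitochondrial ribosome) at -0.53.

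**Figure D1:**
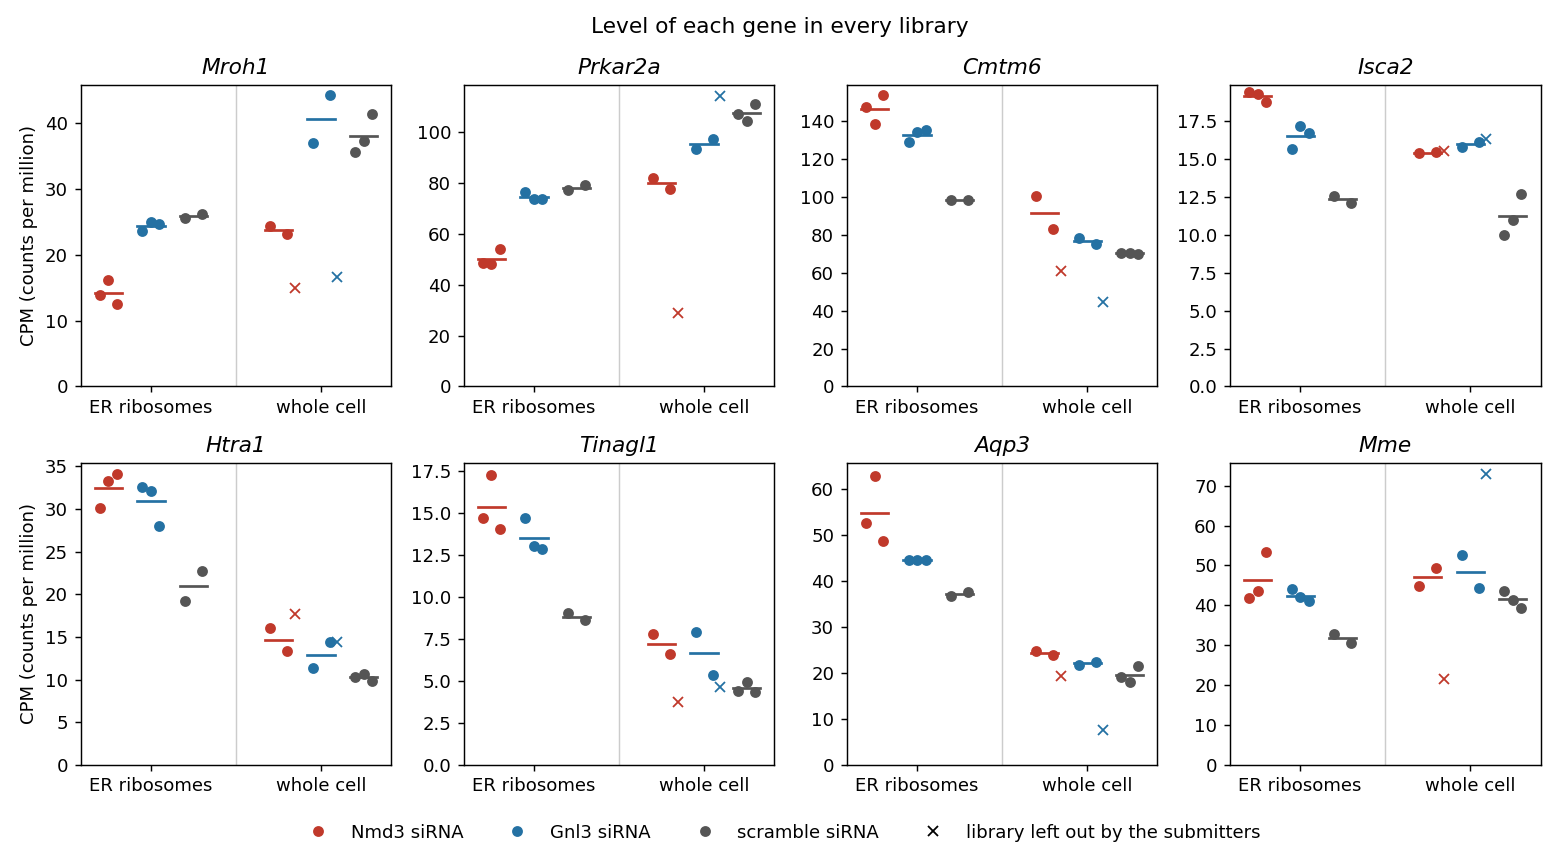
CPM of each gene (vertical axis) in every library, by fraction and by siRNA. Points are libraries used, bars their means and crosses the libraries left out by the submitters. Mroh1 and Prkar2a sit lower after Nmd3 siRNA in both fractions, and the other 6 genes sit higher after both siRNAs than after scramble siRNA in the libraries used.

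Mroh1 encodes a protein with HEAT-like repeats. ER ribosome libraries held 13.8, 16.2 and 12.5 CPM with Nmd3 siRNA and 23.6, 25 and 24.6 CPM after Gnl3 siRNA, against 25.6 and 26.2 CPM after scramble siRNA. Whole-cell libraries held 24.3 and 23.1 CPM after Nmd3 siRNA and 37 and 44.2 CPM after Gnl3 siRNA, against 35.6, 37.3 and 41.3 CPM after scramble siRNA. Of the libraries used, those with Nmd3 siRNA were the lowest of each fraction, and the Gnl3 and scramble libraries overlapped in whole-cell RNA. The whole-cell log2 fold change was -0.69 (SE 0.095, adjusted p 0.00029 by edgeR) for Nmd3 against scramble siRNA. For Gnl3 against scramble siRNA it was 0.10 (SE 0.089, adjusted p 0.87, 95% interval -0.08 to 0.28). The siRNAs differed from each other by -0.79 (SE 0.103, adjusted p 5.0e-05) for Nmd3 against Gnl3. Mroh1 overlaps an exon of Bop1, a factor of large subunit assembly, on the other strand, and the strand setting of the counting is not stated. Whole-cell Bop1 levels were 171 and 165 CPM after Nmd3 siRNA, against 164, 155 and 163 CPM after scramble siRNA, with a log2 fold change of 0.06 (SE 0.057, adjusted p 0.77).

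Prkar2a encodes the RII alpha regulatory subunit of protein kinase A, which holds the catalytic subunits inactive until cAMP binds and docks on A-kinase anchoring proteins. ER ribosome libraries held 48.6, 48 and 54.1 CPM with Nmd3 siRNA and 76.7, 73.8 and 73.8 CPM after Gnl3 siRNA, against 77.2 and 79.2 CPM after scramble siRNA. Its whole-cell level was 82.3 and 77.9 CPM after Nmd3 siRNA and 93.5 and 97.6 CPM after Gnl3 siRNA, against 107, 105 and 111 CPM after scramble siRNA. No groups overlapped in either fraction, and the order was Nmd3 lowest, then Gnl3, then scramble. In whole-cell RNA Prkar2a fell by 0.43 on the log2 scale after Nmd3 siRNA (SE 0.063, adjusted p 0.00051 by edgeR). The value for Gnl3 against scramble siRNA was -0.17 (SE 0.062, adjusted p 0.35), and for Nmd3 against Gnl3 siRNA it was -0.27 (SE 0.069, adjusted p 0.12). A fall with Nmd3 siRNA beyond that with Gnl3 siRNA was thus not called after adjustment over all genes. The 95% interval of that difference, which is not adjusted, was -0.41 to -0.13.

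Cmtm6 encodes a MARVEL domain membrane protein that keeps PD-L1 at the cell surface. ER ribosome libraries held 147, 139 and 154 CPM with Nmd3 siRNA and 129, 134 and 135 CPM after Gnl3 siRNA, against 98.1 and 98.4 CPM after scramble siRNA. The whole-cell values were 100.3 and 83.1 CPM after Nmd3 siRNA and 78.2 and 75.3 CPM after Gnl3 siRNA, against 70.5, 70.6 and 69.6 CPM after scramble siRNA. The Nmd3 libraries were the highest in each fraction and the scramble libraries the lowest, with no overlap. In whole-cell RNA Cmtm6 rose by 0.38 on the log2 scale after Nmd3 siRNA (SE 0.07, adjusted p 0.010 by edgeR). It did not pass for Gnl3 against scramble siRNA (0.13, SE 0.071, adjusted p 0.67) or for Nmd3 against Gnl3 siRNA (0.25, SE 0.077, adjusted p 0.25). The Nmd3 call was lost without replicate 1, the library low in mitochondrial RNA, where the log2 fold change was 0.25 and the adjusted p 0.30. The part of the mitochondrial share in this result was not tested. The adjusted p was 0.088 without scramble replicate 1 and 0.090 without scramble replicate 3.

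Isca2 encodes a mitochondrial protein that assembles iron-sulfur clusters. ER ribosome libraries held 19.4, 19.3 and 18.8 CPM with Nmd3 siRNA and 15.7, 17.2 and 16.7 CPM after Gnl3 siRNA, against 12.6 and 12.1 CPM after scramble siRNA. Whole-cell libraries held 15.4 and 15.4 CPM after Nmd3 siRNA and 15.8 and 16.1 CPM after Gnl3 siRNA, against 9.98, 11 and 12.7 CPM after scramble siRNA. Both siRNA groups lay above all scramble libraries in both fractions. In whole-cell RNA Isca2 rose by 0.50 on the log2 scale after Gnl3 siRNA (SE 0.122, adjusted p 0.038 by edgeR). For Nmd3 against scramble siRNA the log2 fold change was 0.44 (SE 0.122, adjusted p 0.17), and for Nmd3 against Gnl3 siRNA it was -0.06 (SE 0.131, 95% interval -0.33 to 0.21). The Gnl3 call was lost with DESeq2 (adjusted p 0.069). It was also lost without scramble replicate 1 (0.26), scramble replicate 2 (0.15), Gnl3 replicate 1 (0.32) or Gnl3 replicate 2 (0.33).

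Htra1 and Tinagl1 encode secreted proteins, a serine protease of the extracellular matrix and a matricellular protein related to cathepsin B. Htra1 levels on ER ribosomes were 30.1, 33.2 and 34.2 CPM after Nmd3 siRNA and 32.6, 32.1 and 28 CPM after Gnl3 siRNA, against 19.3 and 22.7 CPM after scramble siRNA. Its whole-cell level was 16.1 and 13.3 CPM after Nmd3 siRNA and 11.4 and 14.4 CPM after Gnl3 siRNA, against 10.3, 10.7 and 9.88 CPM after scramble siRNA. The Nmd3 and Gnl3 libraries overlapped in both fractions, and both lay above scramble. Tinagl1 levels on ER ribosomes were 14.7, 17.3 and 14 CPM after Nmd3 siRNA and 14.7, 13 and 12.9 CPM after Gnl3 siRNA, against 9.01 and 8.62 CPM after scramble siRNA. The whole-cell values were 7.81 and 6.6 CPM after Nmd3 siRNA and 7.9 and 5.36 CPM after Gnl3 siRNA, against 4.39, 4.93 and 4.31 CPM after scramble siRNA. The overlap was the same as for Htra1. In whole-cell RNA neither gene passed the test for either siRNA. Log2 fold changes for Nmd3 against scramble siRNA were 0.51 for Htra1 (SE 0.131, adjusted p 0.14 by edgeR) and 0.66 for Tinagl1 (SE 0.183, adjusted p 0.17). For Gnl3 against scramble siRNA they were 0.34 for Htra1 (adjusted p 0.39) and 0.54 for Tinagl1 (adjusted p 0.27). Leaving out Nmd3 replicate 3 left replicate 1 alone, the library low in mitochondrial RNA. The log2 fold change for Nmd3 against scramble siRNA was then 0.625 for Htra1 and 0.762 for Tinagl1. Without Nmd3 replicate 1 it was 0.386 for Htra1 and 0.55 for Tinagl1.

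Aqp3 is a channel for water and glycerol, and Mme (neprilysin) is a cell surface metallopeptidase. Aqp3 levels on ER ribosomes were 52.6, 62.8 and 48.7 CPM after Nmd3 siRNA and 44.6, 44.5 and 44.6 CPM after Gnl3 siRNA, against 36.7 and 37.5 CPM after scramble siRNA. Whole-cell libraries held 24.7 and 23.8 CPM after Nmd3 siRNA and 21.7 and 22.4 CPM after Gnl3 siRNA, against 19.1, 18 and 21.4 CPM after scramble siRNA. The order was Nmd3, Gnl3 and scramble from high to low in both fractions, without overlap. Mme levels on ER ribosomes were 41.9, 43.5 and 53.4 CPM after Nmd3 siRNA and 44.1, 42.1 and 41 CPM after Gnl3 siRNA, against 32.9 and 30.6 CPM after scramble siRNA. Its whole-cell level was 44.7 and 49.3 CPM after Nmd3 siRNA and 52.6 and 44.3 CPM after Gnl3 siRNA, against 43.6, 41.4 and 39.4 CPM after scramble siRNA. The Nmd3 and Gnl3 libraries of Mme overlapped in both fractions. In whole-cell RNA the log2 fold change for Nmd3 against scramble siRNA was 0.30 for Aqp3 (SE 0.1, adjusted p 0.27 by edgeR) and 0.18 for Mme (SE 0.085, adjusted p 0.49). For Gnl3 against scramble siRNA it was 0.18 for Aqp3 (adjusted p 0.69) and 0.23 for Mme (adjusted p 0.35).

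Counted over the 8 genes, 3 passed for Nmd3 against scramble siRNA in whole-cell RNA (Mroh1, Prkar2a and Cmtm6), where 0.166% of 17490 genes passed. All 8 had an unadjusted p under 0.05, against 9.69% of genes tested, and in all 8 the groups did not overlap, against 24.9% of genes tested. For Gnl3 against scramble siRNA 1 of 8 passed (Isca2), against 0.812% of genes tested. There 5 of 8 had an unadjusted p under 0.05, against 8.50% of genes tested. In 7 of 8 the Gnl3 and scramble groups did not overlap, against 27.1% of genes tested, and Mroh1 was the exception. For Nmd3 against Gnl3 siRNA 1 of 8 passed (Mroh1), against 0.212% of genes tested. The genes were chosen in ER libraries of the same cultures, so these counts are not independent of the choice at the level of cultures. They also hold only without the libraries left out. With both kept, 0 of 8 passed in each of these comparisons with edgeR and with DESeq2. An unadjusted p under 0.05 was found for 4 (Nmd3 against scramble), 1 (Gnl3 against scramble) and 1 (Nmd3 against Gnl3) of the 8. In the same order, it was found for 393, 199 and 1148 of the 17310 genes tested. Of these 17310 genes edgeR called 0 in each comparison, so the loss of calls was not limited to the 8.

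Nmd3 whole-cell replicate 2 held 14.9 CPM of Mroh1, 29 of Prkar2a, 60.7 of Cmtm6, 15.5 of Isca2, 17.6 of Htra1, 3.73 of Tinagl1, 19.2 of Aqp3 and 21.4 of Mme. Gnl3 whole-cell replicate 3 held 16.6 CPM of Mroh1, 114.4 of Prkar2a, 44.8 of Cmtm6, 16.3 of Isca2, 14.4 of Htra1, 4.64 of Tinagl1, 7.5 of Aqp3 and 73.1 of Mme. Mroh1 was thus low in both, and Prkar2a was low in the Nmd3 library and high in the Gnl3 library.

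**Figure D2:**
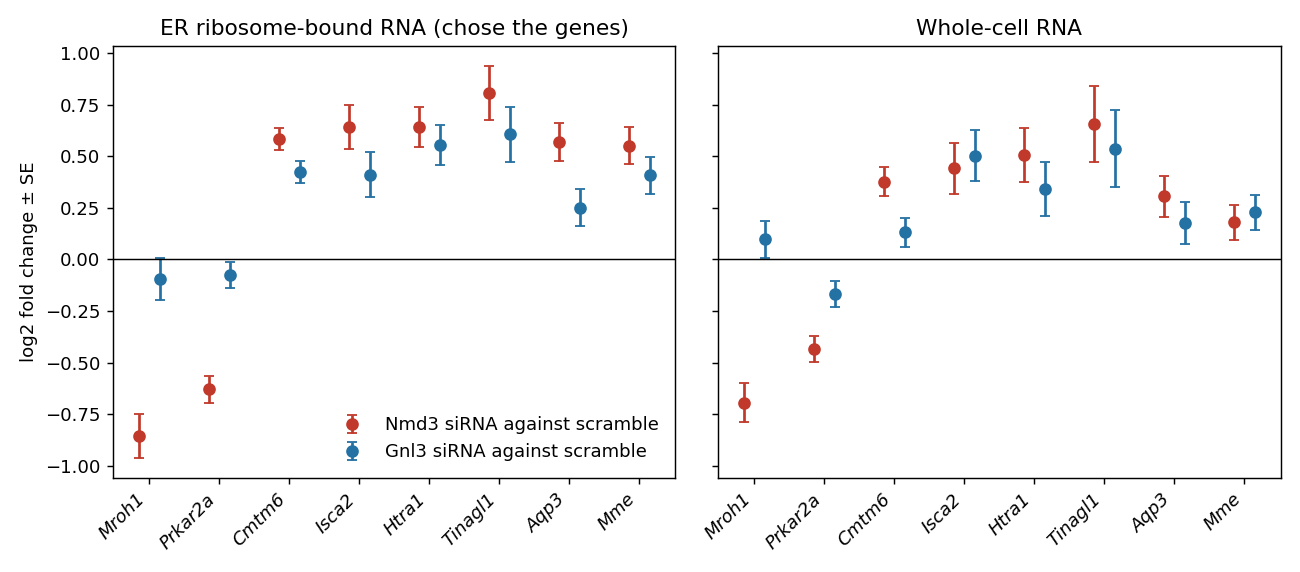
Log2 fold change ± SE (vertical axis) of each gene for Nmd3 siRNA (red) and Gnl3 siRNA (blue) against scramble siRNA, in ER ribosome-bound RNA (left) and in whole-cell RNA (right). The comparisons share the scramble libraries of their fraction, and Nmd3 siRNA on ER ribosomes is the comparison that chose the genes. Mroh1 was at -0.86 and -0.69 after Nmd3 siRNA, and at -0.10 and 0.10 after Gnl3 siRNA.

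On ER ribosomes the values for Gnl3 against scramble siRNA are likewise a description, since the scramble libraries are those that chose the genes. Mroh1 was at -0.10 and Prkar2a at -0.08 on the log2 scale. Cmtm6 was at 0.42, Isca2 at 0.41, Htra1 at 0.55, Tinagl1 at 0.61, Aqp3 at 0.25 and Mme at 0.41. The 2 genes that were lower after Nmd3 siRNA thus had values near 0 after Gnl3 siRNA, and the 6 that were higher after Nmd3 siRNA were higher after Gnl3 siRNA too.

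**Figure D3:**
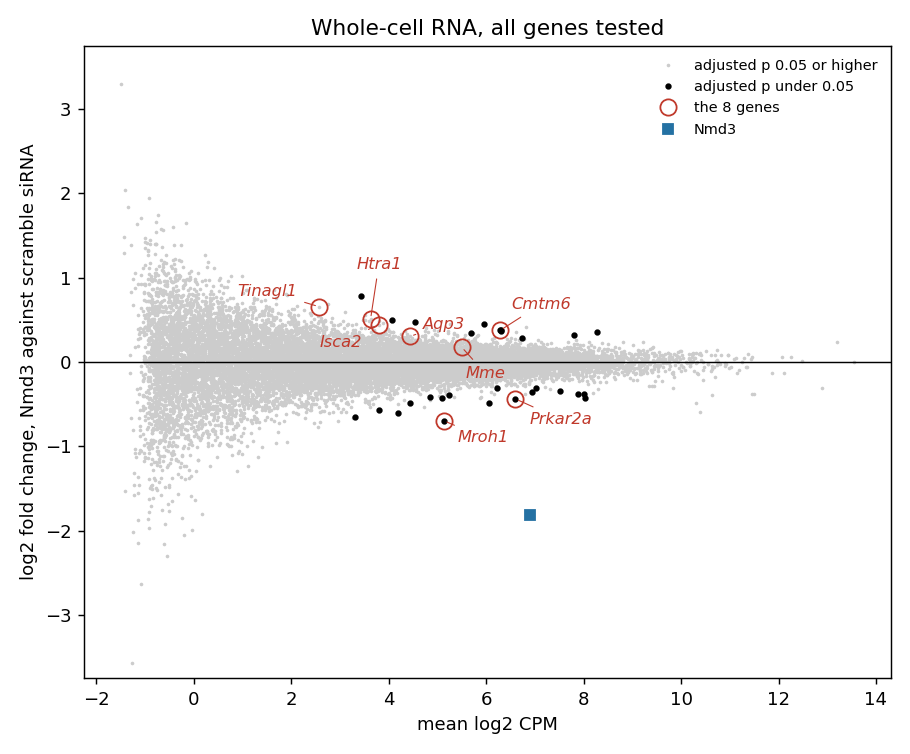
Log2 fold change for Nmd3 against scramble siRNA (vertical axis) against mean log2 CPM (horizontal axis) for the genes tested in whole-cell RNA. Grey points did not pass an adjusted p of 0.05, black points did, red rings mark the 8 genes and the blue square marks Nmd3. The rings of Mroh1, Prkar2a and Cmtm6 enclose black points and the other 5 do not.

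The level on ER ribosomes relative to whole-cell RNA was compared after Gnl3 siRNA, since none of those libraries chose the genes. Htra1, Tinagl1, Aqp3 and Cmtm6 were higher on ER ribosomes than in whole-cell RNA, and Mroh1, Prkar2a and Mme were lower. The log2 ratio of ER ribosome-bound to whole-cell RNA was 1.21 for Htra1 (SE 0.113), 1.00 for Tinagl1 (SE 0.152), 0.97 for Aqp3 (SE 0.097) and 0.75 for Cmtm6 (SE 0.064). It was -0.78 for Mroh1 (SE 0.096), -0.40 for Prkar2a (SE 0.062) and -0.23 for Mme (SE 0.089, adjusted p 0.033 by edgeR). Adjusted p was at most 1.3e-06 for the other 6. Isca2 was not called, at 0.01 (SE 0.11, adjusted p 0.96, 95% interval -0.21 to 0.23). In all 7 of 8 passed, where 48.1% of 18271 genes passed. With both libraries left out kept, 4 of 8 passed (Htra1, Tinagl1, Aqp3 and Cmtm6). The Mme call was lost without Gnl3 whole-cell replicate 1 (log2 ratio -0.11, adjusted p 0.48), without Gnl3 ER replicate 2 (adjusted p 0.078) or 3 (0.082), and with library totals in place of TMM scaling (0.078).

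**Figure D4:**
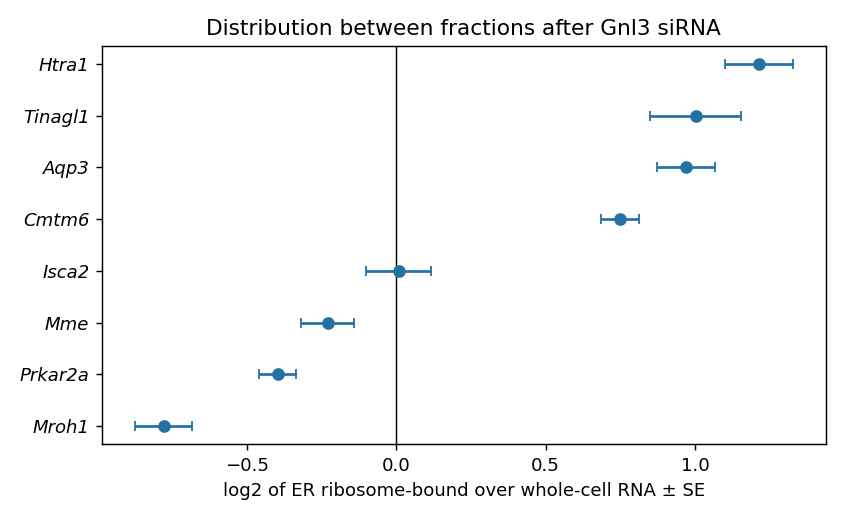
Log2 ratio of ER ribosome-bound over whole-cell RNA ± SE (horizontal axis) for each gene after Gnl3 siRNA. Htra1, Tinagl1, Aqp3 and Cmtm6 lie at 0.75 or above, Isca2 at 0.01, and Mme, Prkar2a and Mroh1 below 0.

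Genes related to the 8 by family or pathway did not pass the whole-cell tests of Nmd3 or Gnl3 siRNA against scramble. The 13 lists also held interferon and double-stranded RNA response genes, and markers of pluripotent, primitive endoderm, trophoblast and fibroblast or feeder cells. Over all 13 lists, 0 of the 108 listed genes tested passed with edgeR or with DESeq2 in either comparison. For Nmd3 siRNA 15 of 108 (13.9%) had an unadjusted p under 0.05, against 9.69% of all genes tested, and for Gnl3 siRNA 12 of 108 (11.1%) did, against 8.50%. For Nmd3 siRNA 2 of 8 pluripotent, 2 of 7 primitive endoderm, 3 of 7 trophoblast and 1 of 3 fibroblast markers did. For Gnl3 siRNA 4 of 8, 0 of 7, 2 of 7 and 0 of 3 of these markers did, and 2 of 9 interferon genes. Of 18 genes for protein kinase A subunits, inhibitors and anchors other than Prkar2a, 4 had an unadjusted p under 0.05 for Nmd3 against scramble siRNA, where 9.69% of all genes did, and the median log2 fold change was -0.07. These 4 did not share a direction. Pkia (-0.71), Prkar2b (-0.333) and Akap8 (-0.147) were lower and Prkar1a (0.182) was higher, with adjusted p 0.29 to 0.48 by edgeR. Of 21 other genes of mitochondrial iron-sulfur cluster assembly, 1 had an unadjusted p under 0.05, with a median of 0.00. Among 15 basement membrane and matrix genes the median was 0.02, among 6 genes of the CMTM family and PD-L1 it was -0.03, and among 3 of the MROH family it was 0.05. The 3 aquaporins tested had a median of 0.02, the 7 cell surface peptidases -0.14 and the 1 other HtrA protease a value of -0.13. The median over all genes tested was 0.00. The 9 interferon and double-stranded RNA response genes had a median of -0.05, with 1 at an unadjusted p under 0.05. The matrix list held 1 such gene, and the CMTM, MROH, aquaporin, peptidase and HtrA lists held 0. For Gnl3 against scramble siRNA the protein kinase A, CMTM, matrix and aquaporin lists held 1 each. The iron-sulfur, MROH, peptidase and HtrA lists held 0 there. For Nmd3 against Gnl3 siRNA, 1 listed gene passed with edgeR, the pluripotency factor Tfcp2l1 (0.32, SE 0.065, adjusted p 0.025), and DESeq2 called it too, with Krt8, a keratin among the trophoblast markers (-0.43, SE 0.118, adjusted p 0.048 by DESeq2 and 0.055 by edgeR). Krt8 was named after its values were seen. In that comparison 18 of 108 (16.7%) had an unadjusted p under 0.05, against 9.29% of all genes tested. Among them were 6 of 8 pluripotent markers (median log2 fold change 0.16), 3 of 15 matrix genes and 2 of 21 iron-sulfur genes. No other list held more than 1.

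Over the 15 libraries, with each fraction centred on its mean, the gene whose log2 CPM followed Mroh1 most closely was Nmd3 itself (Pearson r 0.953), and the next was Fbxw11 (0.943). For Prkar2a they were Nmd3 (0.962) and Zhx1 (0.943). The other 6 genes had r between -0.79 and -0.51 with Nmd3. Their closest genes were Sumf1 (0.941) and Mlec (0.919) for Cmtm6, Agpat4 (0.945) and Msmo1 (0.926) for Isca2, Pros1 (0.922) for Htra1, and Ddx4 (0.899) and Cpe (0.897) for Tinagl1. For Aqp3 they were Sept1 (0.947) and Tmbim6 (0.933), and for Mme Stam2 (0.914) and Timm17a (0.896). These correlations describe libraries that include those that chose the genes, and all points of a group share an siRNA. Whether an siRNA pairs with any of the 8 mRNAs was not tested.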

How the data were processed

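The files hold raw counts per gene, 1 library each, as deposited by the authors without normalization. Per the submitters' processing notes, the tools were STAR 2.7.9a, HTSeq 0.11.2 and DESeq2, and the build was GRCm39. The annotation, the strand setting and any read filter are not given in the sources used here. Symbols came from GENCODE M21 and named 52083 of 55416 IDs. Lines that name no gene were left out (no feature, 46.6% to 48.3%). Depth was 15.2 to 29.9 M gene counts.

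Groups were compared with the edgeR 4.0.16 quasi-likelihood test in R 4.3.3 (filterByExpr, TMM, robust), with Benjamini-Hochberg adjustment over all genes tested and a threshold of 0.05. Whole-cell comparisons used 7 libraries and 17490 genes, and the ratio of fractions used 15 libraries and 18271 genes. ER comparisons used 8 libraries and 17632 genes. The fit was tested on simulated data. SE is the absolute log2 fold change over the square root of F. CPM of single libraries is per M gene counts. Each lysate gave both fractions, although scramble replicate 1 has no ER library here. Where both libraries of a lysate were used, their deviations from their group means correlated at -0.030 to 0.018. A replicate block was an alternative. DESeq2 1.42.0 was another.

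The genes, lists and rule for naming genes (the 8 genes, the 5 next by fold change on ER ribosomes, listed genes that passed, and the 2 closest by correlation) were chosen with earlier results of these data known. Scramble ER replicate 1 was not analysed here. A gene that the naming rule gives is not reported here.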

Additional observations from a re-analysis of the deposited data

Results flagged for a closer look

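The libraries left out of the tests held levels above those of all scramble whole-cell libraries for 4 of the genes. In Nmd3 whole-cell replicate 2, Isca2 was at 15.5 CPM and Htra1 at 17.6 CPM. In Gnl3 whole-cell replicate 3, Prkar2a was at 114.4 CPM, Isca2 at 16.3 CPM, Htra1 at 14.4 CPM and Mme at 73.1 CPM. For Isca2 and Htra1 these were near the levels of the other libraries of the same siRNA, whereas Prkar2a and Mme in the Gnl3 library lay above them.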

How the results depend on the processing

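With both left-out libraries kept, edgeR called 0 genes and 0 of the 8 in each whole-cell comparison, where 393 genes (Nmd3 against scramble), 199 (Gnl3 against scramble) and 1148 (Nmd3 against Gnl3) had an unadjusted p under 0.05 and DESeq2 called 0, 1 and 1. In the ratio of fractions it called 4540 genes and 4 of the 8. Mroh1 and Prkar2a were still lower for Nmd3 against scramble siRNA (-0.75 and -0.70, adjusted p 0.85). In the same setting Mme turned to -0.015 for Nmd3, Mroh1 to -0.19, Cmtm6 to -0.046 and Aqp3 to -0.15 for Gnl3 against scramble siRNA, and Isca2 to 0.051 for Nmd3 against Gnl3 siRNA and to -0.041 in the ratio. The biological coefficient of variation was 0.316 in this fit, against 0.0589 without them.

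In the other 11 alternatives Mroh1 and Prkar2a were called each time for Nmd3 against scramble siRNA, and in the other 10 Mroh1 was called each time for Nmd3 against Gnl3 siRNA. DESeq2 called 0 of the 8 for Gnl3 against scramble siRNA in whole-cell RNA. Without a filter on low counts, 115 genes were called for Nmd3 against scramble siRNA, Htra1 among them (adjusted p 0.041), and 122 for Nmd3 against Gnl3 siRNA. Nmd3 against Gnl3 siRNA had 57 with all 15 libraries in the fit. A replicate block gave 63 genes there and changed no call of the 8 in any comparison, although the Isca2 ratio was -0.001 with the culture as block, as with only the Gnl3 libraries.

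Leaving out each library in turn gave 8 to 1024 genes and 2 to 5 of the 8 for Nmd3 against scramble siRNA, the highest without Nmd3 replicate 3. It gave 17 to 66 genes and 0 to 1 of the 8 for Gnl3 against scramble siRNA, 7 to 983 genes and 1 to 2 of the 8 for Nmd3 against Gnl3 siRNA, and 7056 to 8277 genes and 6 to 7 of the 8 for the ratio. Where 1 library remained in a group it was assumed to vary like the other groups. Values that changed sign ranged from -0.036 to 0.218 (Mroh1, Gnl3 against scramble siRNA), -0.148 to 0.414 (Tinagl1) and -0.174 to 0.077 (Mme) for Nmd3 against Gnl3 siRNA, and -0.023 to 0.041 (Isca2 ratio). The cause of these changes was not tested. With 2 libraries in an siRNA group, a log2 fold change of 0.66 was not called for Tinagl1, a low gene (SE 0.183).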
